A study of Hordeum vulgare with 6 samples.

Results

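SPX and phosphate starvation genes of barley were followed in young panicles of the *msnsd* mutant and of its parent E934. The group held 94 of the 40411 genes with deposited values and was selected on gene annotation. The lowest mean among the 40411 was 0.00167 TPM, so genes at 0 in every library are not among them. A gene was taken when its description named SPX (17 genes), a phosphate transporter (30 genes, of which 4 triose phosphate transporters were left out) or a purple acid phosphatase (46 genes), or when it carried the gene ontology (GO) term for the cellular response to phosphate starvation (13 genes, of which 5 were found by this term alone). The group was proposed because of HORVU.MOREX.r3.7HG0719630 and HORVU.MOREX.r3.7HG0750980, a pair of SPX genes already known to differ between the genotypes in these libraries. Their values are therefore given as a description and without a test. Counts over the members include them unless stated otherwise, and there they are no evidence about the group. Below, the prefix HORVU.MOREX.r3. is left out of gene names.

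RNA-seq was carried out on panicles of 0.5 to 1 cm at the glume to lemma primordium stages, with 3 biological replicates of each genotype and 6 libraries in all. E934 is a feed barley variety, labelled wild type, and *msnsd* is a dwarf mutant with many stem nodes and spikes that was obtained from E934 after treatment with EMS and 60Co. The mutant group is 1 mutant line, so any other induced change that this line carries is shared by its 3 libraries and cannot be told apart from the causal mutation. Values are TPM, transcripts scaled by their length and by the library total, so levels of genes of different length can be compared. TPM keeps no read depth, and the number of reads behind a value is unknown.

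Phosphate enters plant cells through plasma membrane transporters of the PHT1 family, is loaded into the xylem by PHO1 proteins and is stored in the vacuole. The SPX domain binds inositol pyrophosphates, whose level follows the phosphate status of the cell. In rice and Arabidopsis, proteins made of an SPX domain alone hold back the PHR transcription factors when phosphate is plentiful, and their own genes are switched on by PHR when phosphate is short. Genes for purple acid phosphatases, glycerol-3-phosphate transporters and enzymes that take phosphate from lipids are induced by the same response.

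The 6 libraries had like overall profiles. Correlations of log2 values across genes were 0.951 to 0.968 within a genotype and 0.947 to 0.958 between genotypes. The summed level of 94 inflorescence marker genes (MADS-box, knotted, squamosa promoter-binding and LSH or ALOG genes) was 2466 to 2576 TPM and overlapped between genotypes. Within that sum, the sum of the 59 MADS-box genes was lower in every *msnsd* library (1440, 1301 and 1359 TPM in E934, against 1212, 1232 and 1201 TPM), and that of the 13 squamosa promoter-binding genes was higher in every one (571, 672 and 622 TPM, against 738, 754 and 711 TPM). The part of these shifts in the results below was not tested. The summed level of 35 leaf marker genes overlapped, at 473 to 658 TPM in E934, against 499 to 766 TPM in *msnsd*. No marker class, of inflorescence or of leaf, was at 0 in any of the 6 libraries. Sums above 0 in both kinds of marker cannot show which tissue was sampled, and the tissue is taken from the labels. In bulk tissue, fewer cells of a type and less RNA per cell cannot be told apart.

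Of the 94 genes, 82 had a mean of at least 0.1 TPM and were tested with limma on log2(TPM + 0.1) within a fit of 32968 genes. The threshold was an adjusted p of at most 0.05 with a log2 fold change of 1.5 or more in size. It was passed by 0.0485% of all genes and by 1 member, 7HG0719630. This gene had led to the group, so the count of 1 is a description and no test of the members. That count was 3 without E934 replicate 1 and 0 without E934 replicate 3 or without any 1 of the *msnsd* libraries, and it was also 0 with a pseudocount of 1 and with the replicate number as a block. Over all genes, 22 of 32931 passed without E934 replicate 1 and 18 of 32968 with a pseudocount of 1. In the other fits with a member count of 0, the count over all genes was also 0. An unadjusted p of at most 0.05 was found for 9 members that were lower in *msnsd* (11.0% of those tested) and 5 that were higher (6.10%), beside 5.09% and 5.58% of all genes. Without the pair of genes that had led to the group, the counts were 7 of 80 lower (8.75%), 5 of 80 higher (6.25%) and 0 past the threshold, and the smallest limma adjusted p was 0.0906. All 3 *msnsd* libraries lay below all 3 E934 libraries for 10 members, against 7.86% of all genes, and above them for 5 members, against 8.73% of all genes. Without that pair, the 10 became 8. The median log2 fold change was -0.04 over the tested members and -0.02 over all genes.

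**Figure D1:**
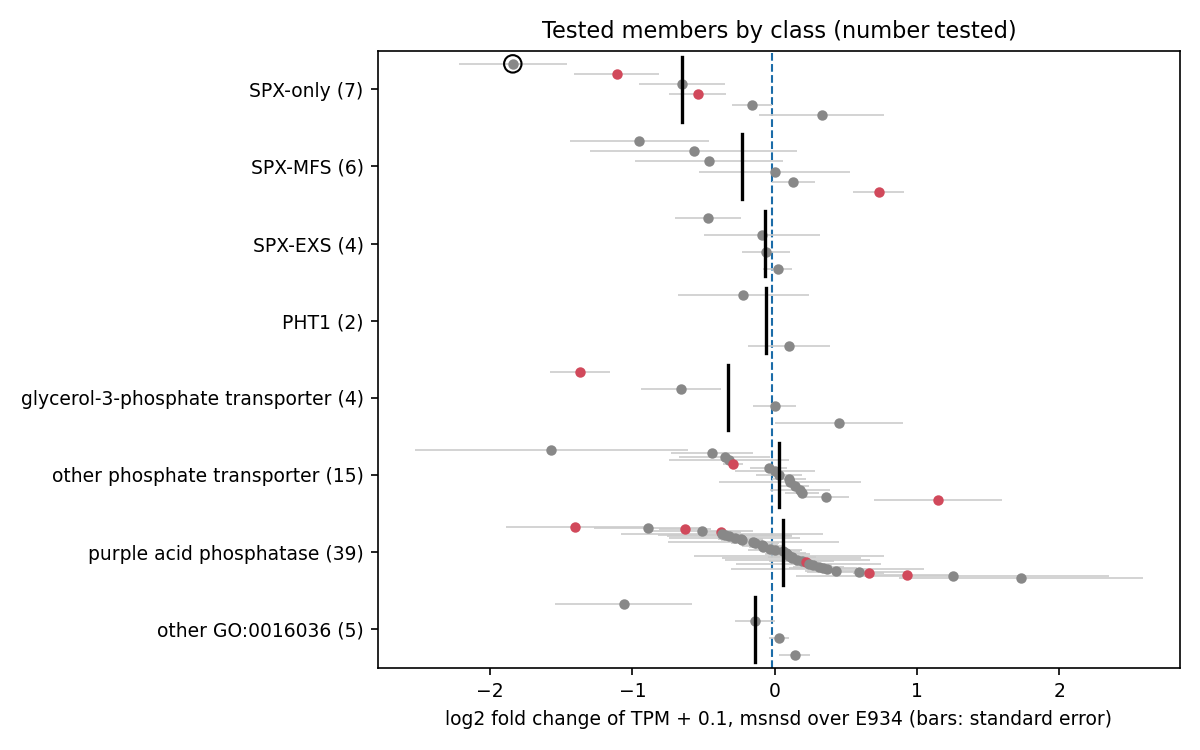
Log2 fold change of TPM + 0.1 (*msnsd* over E934, horizontal axis) with its standard error for tested members by class. Red points have an unadjusted p of at most 0.05, black bars are class medians, the dashed line is the median of all genes (-0.02), and the ringed point is 7HG0750980, shown without a test. The 3 genes listed at 0 in all *msnsd* libraries are not drawn but count in the medians, and the SPX-only median is -0.65, or -0.54 without 7HG0719630 and 7HG0750980, which led to the group.

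The class called SPX-only here holds the 9 genes described as SPX proteins without a named transport domain, the description that PHR inhibitors also carry. For 5 of the 9 no Pfam domain is listed, so an intact SPX domain was not shown by the annotation. Of the 9 genes 7 were tested, 6 had a log2 fold change below 0, and 4 had all *msnsd* libraries below all E934 libraries. Without the pair that led to the group these counts were 4 and 2 of 5, beside 52.4% and 7.86% of all genes. Their median log2 fold change was -0.65, or -0.54 over those 5. An unadjusted p of at most 0.05 was reached by 2 of these 5, both lower in *msnsd*, and by none in the other direction. Of all genes, 5.09% were lower and 5.58% higher at that p. None of the 5 passed the threshold.

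The gene 7HG0719630 lies on chromosome 7H at bases 525358807 to 525359127 of the Morex V3 assembly. It is a short, low-confidence model of 321 bp with no Pfam domain listed, and it lies inside the RefSeq protein-coding model LOC123409210 (525358623 to 525359295). Its level in E934 was 6.76, 20.38 and 6.76 TPM in replicates 1 to 3, and it was listed at 0 in all 3 *msnsd* libraries. The genotypes did not overlap, and replicate 2 of E934 stood well above its fellow replicates, which were listed at the same value. The authors' mean normalised count over the 6 libraries was 20.4, so few reads stand behind the gene.

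The other SPX gene that led to the group, 7HG0750980 (7H, 626576474 to 626577510), is a high-confidence model within a protein-coding RefSeq gene. It was at 2.27, 2.60 and 5.32 TPM in E934, against 0.64, 0.75 and 1.10 TPM in *msnsd*. Every mutant library was below every E934 library, and the mean went from 3.40 ± 1.67 to 0.83 ± 0.24 TPM (SD, n = 3), 75.6% lower. Its authors' mean normalised count was 39.7.

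The most abundant SPX-only gene, 7HG0719650, is a high-confidence gene of 4354 bp that starts 40439 bases beyond the end of 7HG0719630. In E934 it was at 25.95, 39.43 and 45.08 TPM, and in *msnsd* at 25.52, 23.01 and 25.44 TPM. The groups did not overlap, but E934 replicate 1 lay only just above the highest mutant library. The log2 fold change was -0.54 ± 0.20 (SE), with an unadjusted p of 0.0285 and a limma adjusted p of 0.400. The 2 genes are the only SPX-only genes within 100 kb of each other. Whether reads of the one could be assigned to the other was not tested.

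Next in level, 2HG0125510 (2H, 101174993 to 101176210) was at 12.28, 21.53 and 28.62 TPM in E934, against 10.93, 8.29 and 8.23 TPM in *msnsd*. All mutant libraries were below all E934 libraries, with E934 replicate 1 again closest to them. The mean was 56.0% lower in *msnsd*, a log2 fold change of -1.11 ± 0.30 (SE), with an unadjusted p of 0.00768 and a limma adjusted p of 0.274.

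The remaining SPX-only genes differed less or were scarce. The gene 5HG0528310 was at 8.04, 10.82 and 8.58 TPM in E934, against 8.35, 8.07 and 7.92 TPM in *msnsd*, and the groups overlapped (log2 fold change -0.16 ± 0.14). A short low-confidence model over a RefSeq pseudogene, 6HG0556520, was at 5.10, 6.22 and 3.03 TPM against 3.51, 3.03 and 2.28 TPM (-0.65 ± 0.30, with an adjusted p of 0.498 in limma). The low-confidence model 6HG0570550 was at 2.02 to 2.92 TPM in E934, against 6.15, 2.04 and 2.05 TPM in *msnsd*, so that 1 mutant library carried the higher mean. Below the filter, 3HG0267330 and 4HG0396980 had a TPM above 0 in 1 and 2 of the 6 libraries.

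**Figure D2:**
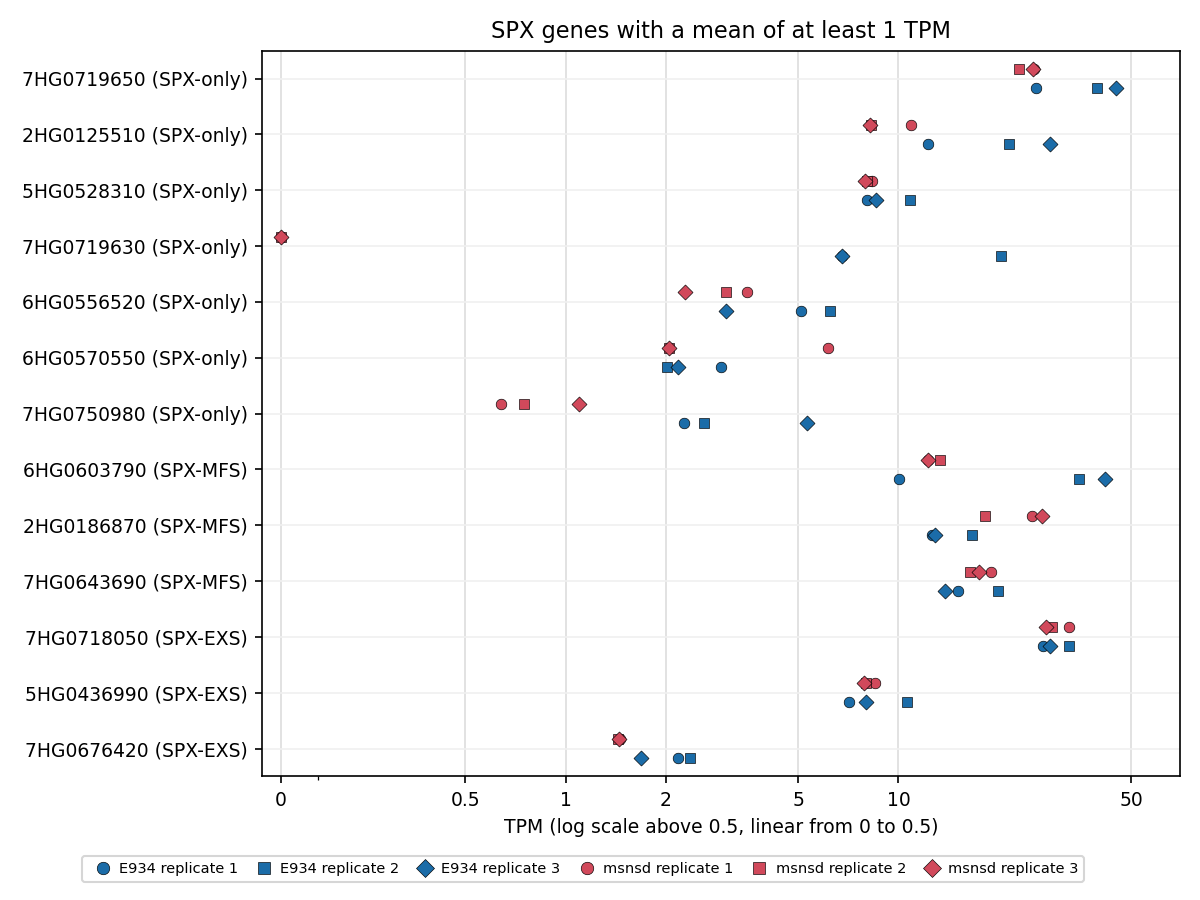
TPM (horizontal axis, log scale above 0.5) of each SPX gene with a mean of at least 1 TPM in the 3 E934 libraries (blue) and the 3 *msnsd* libraries (red), with marker shapes for the replicates. Blue and red do not overlap for 7HG0719650, 2HG0125510, 7HG0719630, 7HG0750980 and 7HG0676420 (*msnsd* lower) and for 2HG0186870 (*msnsd* higher).

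Summed over the 9 SPX-only genes, the level was 63.3, 104 and 99.6 TPM in E934, against 55.2, 45.2 and 47.0 TPM in *msnsd*. The mutant sum was 0.553 times that of E934, and 0.634 times without 7HG0719630. No test is attached to these sums, since they include the genes that led to the group. Replicate 1 of E934 was the lowest of its genotype and still above each mutant library.

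Proteins with an SPX domain and a major facilitator domain carry phosphate across the vacuolar membrane in rice and Arabidopsis. The 6 barley genes did not move together, with 3 log2 fold changes below 0 and a median of -0.23. The highest in the class, 6HG0603790 (6H, 440269582 to 440274446), was at 10.01, 34.92 and 41.82 TPM in E934, against 12.27, 13.29 and 12.23 TPM in *msnsd*. E934 replicates 2 and 3 stood well above the mutant, whereas E934 replicate 1 was below all 3 mutant libraries. With all libraries the log2 fold change was -0.95 ± 0.49 (SE), with a limma adjusted p of 0.524. Without E934 replicate 1 it was -1.59 ± 0.11, with a limma adjusted p of 0.0318, which is past the threshold. That was the strongest of 14 alternative settings, which gave -1.59 to -0.57 and limma adjusted p-values of 0.0318 to 0.804.

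In the opposite direction, 2HG0186870 (2H, 584300519 to 584304964) was at 12.62, 16.62 and 12.85 TPM in E934, against 25.14, 18.17 and 27.04 TPM in *msnsd*. Every mutant library was above every E934 library. The mean was 1.67 times that of E934, a log2 fold change of 0.73 ± 0.18 (SE), with an unadjusted p of 0.00507 and a limma adjusted p of 0.237. It was the only SPX gene with an unadjusted p of at most 0.05 that was higher in the mutant. The third high-confidence gene, 7HG0643690, was at 13.82 to 19.85 TPM in E934, against 16.40 to 18.99 TPM in *msnsd*. The other 3 are low-confidence models of 318 to 450 bp below 1.1 TPM in every library.

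The SPX and EXS domain proteins include PHO1, the phosphate exporter of xylem loading. None of the 4 tested genes had an unadjusted p of at most 0.05, and the median log2 fold change was -0.07. The abundant 7HG0718050 was at 29.5 ± 2.75 TPM in E934, against 29.8 ± 2.54 TPM in *msnsd* (SD, n = 3), and 5HG0436990 at 8.57 ± 1.81 and 8.13 ± 0.326 TPM. Among genes named PHO1-like, 7HG0676420 was at 2.17, 2.36 and 1.68 TPM in E934, against 1.46, 1.44 and 1.45 TPM in *msnsd*. These values did not overlap, and the log2 fold change was -0.47 ± 0.23 (SE, limma adjusted p 0.511). The neighbouring PHO1-like genes 6HG0627940 and 6HG0627980 on 6H were below 0.4 TPM in all libraries.

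Glycerol-3-phosphate transporters take up or move a phosphate ester, and in Arabidopsis some of their genes are induced by phosphate shortage. The member with the smallest p besides the pair that led to the group was in this class, 2HG0189010 (2H, 594125984 to 594129329). It was at 22.54, 31.27 and 41.18 TPM in E934, against 11.16, 12.40 and 12.07 TPM in *msnsd*. The mutant libraries lay close together and well below the lowest E934 library. The mean was 62.5% lower, a log2 fold change of -1.37 ± 0.21 (SE), with an unadjusted p of 0.000297 and a limma adjusted p of 0.0906. Without E934 replicate 1 the log2 fold change was -1.59 and the limma adjusted p 0.0425, past the threshold. That was the strongest of 14 alternative settings, which gave -1.59 to -1.16 and limma adjusted p-values of 0.0425 to 0.345.

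A related gene, 7HG0699680, was at 2.96, 6.25 and 5.09 TPM in E934, against 2.74, 2.83 and 2.98 TPM in *msnsd*. Here E934 replicate 1 lay among the mutant libraries, and the log2 fold change was -0.66 ± 0.28 (SE) with an unadjusted p of 0.0509. The other genes of the class, 7HG0658260 and 6HG0599920, had log2 fold changes of -0.00 ± 0.15 and 0.45 ± 0.45. Summed over the 4 genes, the level was 33.4, 46.0 and 53.3 TPM in E934, against 22.3, 23.7 and 22.0 TPM in *msnsd*, with no overlap and a ratio of 0.512. Most of this sum and of its difference belonged to 2HG0189010. Its means were 31.7 TPM in E934 and 11.9 TPM in *msnsd*, within class means of 44.2 and 22.7 TPM. The sums are therefore no sign of a shift shared by the class.

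**Figure D3:**
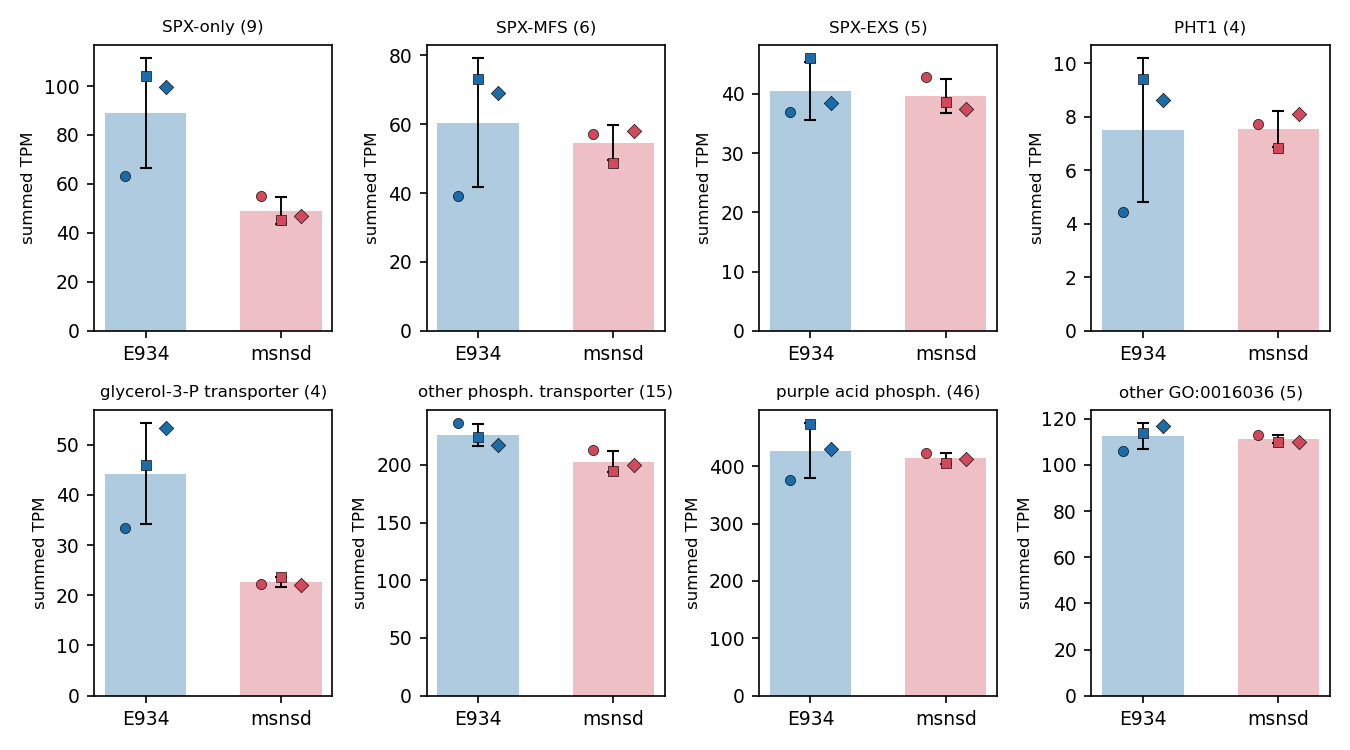
Summed TPM (vertical axis, from 0) of each class in E934 (blue) and *msnsd* (red), with the number of genes in parentheses. Bars are means of 3 libraries, error bars are SD and points are libraries, and the sums of SPX-only genes, glycerol-3-phosphate transporters and other phosphate transporters do not overlap, with ratios of 0.553, 0.512 and 0.897. Most of the sum and of its difference comes from 2HG0189010 in the glycerol-3-phosphate transporters and from 3HG0282010 in the other phosphate transporters.

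Transcripts of the genes classed here as PHT1, phosphate transporters with the Pfam domain PF00083, were scarce in these panicles. Models without that domain were placed among the other phosphate transporters below. They include 7HG0715770 (phosphate transporter 1, mean 7.45 TPM) and 7HG0727410 (phosphate transporter 4, mean 4.96 TPM). Of 4 PHT1 genes with values 2 passed the filter and 1, 5HG0523050, had a mean above 1 TPM. It was at 4.23, 9.27 and 8.28 TPM in E934, against 7.60, 6.59 and 7.97 TPM in *msnsd*, with overlap and a log2 fold change of 0.10 ± 0.29 (SE). E934 replicate 1 was again the lowest library.

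Among the 15 other genes described as phosphate transporters, the median log2 fold change was 0.03, with 1 gene lower and 1 higher at an unadjusted p of at most 0.05. That is 6.67% in each direction, near the 5.09% lower and 5.58% higher of all genes. The highest TPM of any member belonged to 3HG0282010, a model of 225 bp named sodium-dependent phosphate transporter 2, at 143.85, 128.58 and 139.91 TPM in E934, against 117.42, 108.28 and 110.19 TPM in *msnsd*. The groups did not overlap, the mutant mean was 18.5% lower and the log2 fold change was -0.29 ± 0.07 (SE, limma adjusted p 0.241). It makes up most of the class sum and of its difference. The gene that was higher, 5HG0464190, is a low-confidence model at 0.29, 0.79 and 0.34 TPM in E934, against 1.63, 0.95 and 0.81 TPM in *msnsd* (1.15 ± 0.45, with an adjusted p of 0.441 in limma). The next most abundant genes of the class, 4HG0331640 and 3HG0317300, had log2 fold changes of 0.14 ± 0.10 and 0.19 ± 0.12, and their groups overlapped.

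Purple acid phosphatases are metal-bearing enzymes that free phosphate from organic esters inside and outside the cell, and some of them have lost the catalytic residues. They were the largest class, with 46 genes, 39 of them tested and 28 with a mean of at least 1 TPM. An unadjusted p of at most 0.05 was found for 3 that were lower and 3 that were higher in *msnsd*, 7.69% each, beside 5.09% and 5.58% of all genes, and the median log2 fold change was 0.06. The summed level was 377, 473 and 431 TPM in E934, against 424, 405 and 412 TPM in *msnsd*, with overlap.

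The phosphatase with the smallest p was higher in *msnsd*. This gene, 5HG0523310 (5H, 556085573 to 556088631), was at 8.64, 10.02 and 9.63 TPM in E934, against 13.94, 16.19 and 14.88 TPM in *msnsd*. The libraries of each genotype lay close together and the groups were well apart. The mean was 1.59 times that of E934, a log2 fold change of 0.66 ± 0.11 (SE), with an unadjusted p of 0.000578 and a limma adjusted p of 0.107.

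Also higher in every *msnsd* library was 7HG0745090, at 26.18 to 28.21 TPM in E934, against 29.44 to 33.70 TPM in *msnsd* (0.22 ± 0.09, with an adjusted p of 0.427 in limma). The groups of 4HG0412730 touched, at 1.08 to 2.43 TPM and 2.37 to 3.98 TPM (0.93 ± 0.34, with an adjusted p of 0.407 in limma).

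Of the phosphatases that were lower, 7HG0728210 was the most abundant. It is a low-confidence model of 405 bp described as an inactive enzyme, at 51.29, 76.92 and 53.38 TPM in E934, against 43.26, 33.24 and 39.61 TPM in *msnsd*. All mutant libraries were below all E934 libraries (-0.63 ± 0.18, with an adjusted p of 0.286 in limma). The gene 3HG0252650 was at 9.76 to 13.20 TPM in E934, against 8.26 to 9.65 TPM in *msnsd* (-0.38 ± 0.14, with an adjusted p of 0.423 in limma). The third, 7HG0717040, was below 0.6 TPM in all libraries.

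The most abundant high-confidence phosphatases did not separate the genotypes. The gene 4HG0393350 was at 36.44, 58.04 and 55.08 TPM in E934, against 56.56, 60.86 and 65.14 TPM in *msnsd* (0.31 ± 0.18). The gene 4HG0409450 was at 41.55 to 51.98 and 42.18 to 45.65 TPM (-0.03 ± 0.11), and 5HG0461970 at 27.53 to 42.49 and 31.34 to 34.42 TPM (-0.14 ± 0.17). Several phosphatase genes lay within 100 kb of each other, with a pair at 5HG0459970, a pair at 5HG0494050 and a run of 3 from 5HG0499000 to 5HG0499020. None of the tested genes among them had an unadjusted p of at most 0.05. Both models of the first pair, 5HG0459970 and 5HG0459980, overlap the same RefSeq gene, LOC123397963, so they are not shown to be separate genes.

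The 5 members found by the GO term alone had log2 fold changes of -1.44 to 0.14 and unadjusted p-values above 0.05. They include 1HG0058780, the UDP-sulfoquinovose synthase that makes the head group of sulfolipid, a lipid without phosphorus, at 23.8 ± 4.07 TPM in E934, against 21.3 ± 0.131 TPM in *msnsd* (SD, n = 3). The carbamoyl-phosphate synthase subunit gene 5HG0466780, of pyrimidine and arginine synthesis, was at 70.32 to 76.95 TPM across the libraries. The F-box gene 2HG0195200 was at 10.66 to 13.36 TPM. A low-confidence UMP synthase model, 3HG0257300, was at 3.06, 2.80 and 2.34 TPM against 2.69, 1.11 and 0.63 TPM (-1.06 ± 0.48, with an adjusted p of 0.483 in limma).

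Several members shared a pattern over libraries in which E934 replicates 2 and 3 were high and E934 replicate 1 was near the mutant. In 6HG0603790, E934 replicate 1 was at 0.261 times the mean of its fellow replicates and the *msnsd* mean at 0.328 times. For the purple acid phosphatase 2HG0124240, with 5.20, 13.21 and 14.98 TPM in E934, against 5.68, 4.85 and 5.72 TPM in *msnsd*, the ratios were 0.369 and 0.384. In the SPX-only genes 2HG0125510 and 7HG0719650 they were 0.490 and 0.365, and 0.614 and 0.584. Replicate 1 was the lowest E934 library in 37 of 82 tested members (45.1%), beside 35.7% of all genes tested. The summed level of 6 small-subunit genes of rubisco, a leaf enzyme, was also low in that library, at 117 TPM against 255 and 252 TPM in its fellow replicates, but was at 192 to 235 TPM in *msnsd*. The other leaf class, 29 chlorophyll a-b binding genes, was at 357 TPM in that library, against 387 and 406 TPM in its fellow replicates. In *msnsd* it was at 307, 549 and 476 TPM. The part of these leaf genes in the pattern was not tested.

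**Figure D4:**
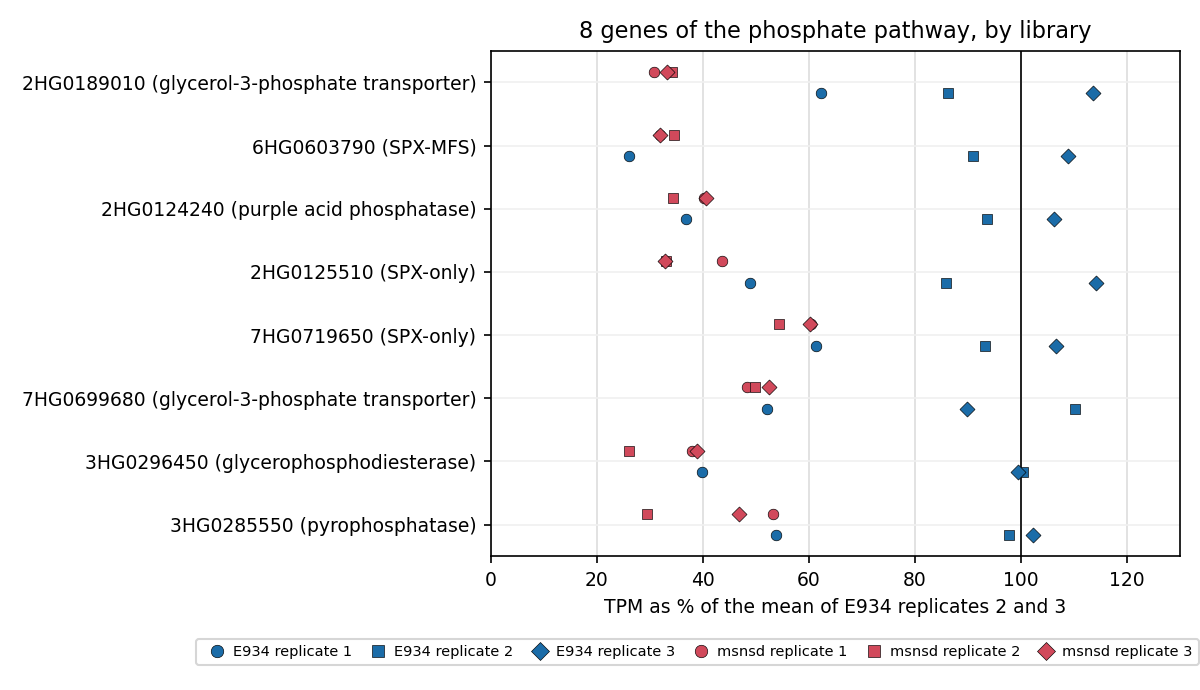
TPM of 8 phosphate pathway genes, chosen after their values were seen, as a percentage of the mean of E934 replicates 2 and 3 (horizontal axis), with E934 in blue, *msnsd* in red and marker shapes for replicates. E934 replicate 1 (blue circle) lies near the red points in most rows, with 2HG0189010 as the clearest exception.

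Leaving out E934 replicate 1 raised the number of members with an unadjusted p of at most 0.05 from 14 to 22, of which 16 were lower in *msnsd* (of 80 tested, beside 7.83% of all genes in that fit). Then 3 members passed the threshold, 6HG0603790, 7HG0719630 and 2HG0189010, of which 7HG0719630 had led to the group. Of all genes in that fit, 22 of 32931 passed. This leaves E934 with 2 libraries, and the larger counts rest on that choice. The spread of log2 values was larger in E934 than in *msnsd* for 75.6% of tested members and 61.9% of all genes tested.

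The genes around 7HG0719630 were examined because it was listed at 0 in the mutant. Of the 10 nearest genes with values on either side, 16 were tested, 2 had an unadjusted p of at most 0.05, and the smallest limma adjusted p was 0.232. These 2 were 7HG0719650, described above, and 7HG0719560, a DUF247 transmembrane protein at 0.77, 1.54 and 0.99 TPM in E934, against 2.74, 2.18 and 3.41 TPM in *msnsd*. Of all genes, 5.09% were lower and 5.58% higher at that unadjusted p. The next tested gene on the other side of 7HG0719630, the low-confidence model 7HG0719620, was at 0.44, 0.42 and 0.36 TPM in the mutant. Its authors' mean normalised count was 2.45, so few reads stand behind it. Beyond it, 7HG0719600 was at 9.72, 8.64 and 9.82 TPM in the mutant, so genes on both sides of 7HG0719630 were detected there. Among the 40411 genes 3 were at 0 in all *msnsd* libraries with at least 1 TPM in each E934 library, and 0 genes showed the reverse. Besides 7HG0719630 these were 6HG0580680 (Dynamin-3), at 3.16, 3.72 and 4.28 TPM in E934, and 4HG0366840 (E2F-DP-type transcription factor), at 2.56, 2.05 and 3.28 TPM. All 3 are low-confidence models without a Pfam domain.

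**Figure D5:**
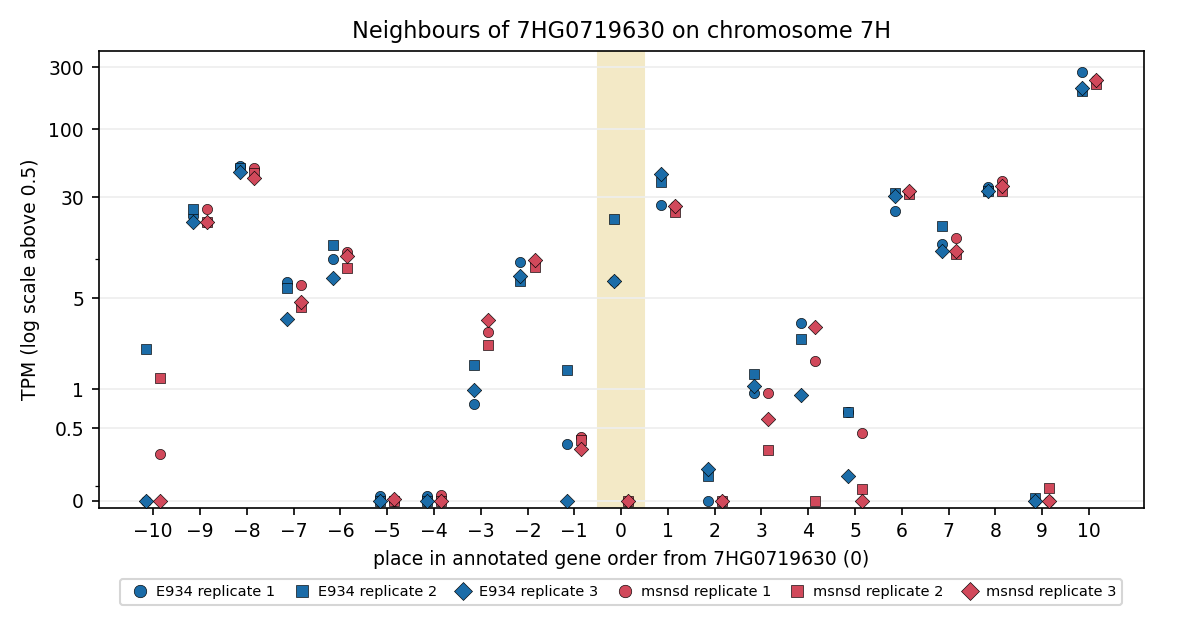
TPM (vertical axis, log scale above 0.5) of 7HG0719630, shaded at place 0, and of the 10 nearest genes with values on either side. E934 is in blue and *msnsd* in red, with marker shapes for replicates. Place 0 is the only one with at least 1 TPM in all E934 libraries and 0 in all *msnsd* libraries, and place 1 is 7HG0719650.

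Other genes whose descriptions matched terms of phosphate biology comprised 84 genes, of which 74 were tested. The match was broad. It took in genes described as Mini-ribonuclease 3, as phosphatidic acid phosphatase or as related to vanadium-dependent haloperoxidase. A role of these in phosphate starvation was not shown. An unadjusted p of at most 0.05 was found for 4 lower (5.41%) and 5 higher (6.76%), near the shares of all genes, and 0 passed the threshold. The smallest p belonged to the glycerophosphodiester phosphodiesterase gene 7HG0679100, whose enzyme class breaks down deacylated phospholipids, at 11.44 to 13.43 TPM in E934, against 15.58 to 18.39 TPM in *msnsd* (0.45 ± 0.11, with an adjusted p of 0.230 in limma). Next came 3HG0266380, a short ribonuclease model (1.48 ± 0.40), the phosphodiesterase 2HG0174760 (0.50 ± 0.14), the acid phosphatase 7HG0698320 (-0.60 ± 0.19) and 3HG0296450. The last, a phosphodiesterase at a higher level, was at 34.27, 86.32 and 85.58 TPM in E934, against 32.67, 22.33 and 33.42 TPM in *msnsd*, with E934 replicate 1 just above the mutant (-1.12 ± 0.37, with an adjusted p of 0.354 in limma). The inorganic pyrophosphatase 3HG0285550, chosen after its values were seen, had the same order, at 10.04, 18.26 and 19.11 TPM and 9.96, 5.49 and 8.75 TPM (-0.95 ± 0.31, with an adjusted p of 0.354 in limma).

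Model quality varied within the group. Of the members, 70 are high-confidence and 24 low-confidence models, and 69 and 7 of these overlap a protein-coding RefSeq gene. No low-confidence member has a Pfam domain listed. Among the 60 tested high-confidence members the median log2 fold change was 0.00, with 6 lower and 4 higher at an unadjusted p of at most 0.05, and among the 22 tested low-confidence members it was -0.36, with 3 lower and 1 higher. All genes had 5.09% lower and 5.58% higher, and each lower count includes 1 gene of the pair that led to the group.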

How the data were processed

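The authors cleaned reads (fastp is named in the submitters' processing notes), used the Morex V3 assembly and Salmon 1.9.0, and deposited TPM per gene and library to 2 decimals. The same table holds their DESeq2 comparison: log2 fold changes with standard errors, test statistics, p-values and adjusted p-values, which were not used. Its mean normalised count, a score deposited by the authors over all 6 libraries, is given beside single genes. How the Salmon estimates entered DESeq2 is not given in the sources used here.

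Libraries were grouped by the genotype in the sample labels. Genes with a mean of at least 0.1 TPM were tested with limma 3.58.1 (R 4.3.3) on log2(TPM + 0.1), with lmFit, eBayes with trend and no term besides genotype, and p-values were adjusted by Benjamini-Hochberg over 32968 genes. TPM are not counts, so no count model was run. Fold changes of low genes are understated by the pseudocount. P-values measure the spread between the 3 libraries of a genotype. An exact two-sided permutation test of a single gene over the 20 assignments of the libraries cannot give a p below 0.1. The test was checked on simulated data. Python 3.11.15 with pandas 2.3.3 served for the tables and matplotlib 3.10.9 for the plots.

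Members, lists and tests were chosen with earlier results of these data known. Named genes were each SPX gene with a mean of at least 0.1 TPM, the 4 highest of each other class, each member with an unadjusted p of at most 0.05, the 5 other pathway genes with the smallest p, genes at 0 in all *msnsd* libraries with at least 1 TPM in each E934 library, and the 10 neighbours on either side of 7HG0719630. Others were named after their values were seen. Classes were set by description and Pfam domain. RefSeq models of the same assembly were matched by overlap of coordinates. Alternatives were other pseudocounts, filters, scalings and thresholds, limma without the trend, a replicate block, narrower member rules and each library left out.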

Additional observations from a re-analysis of the deposited data

How the results depend on the processing

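The number of members past the threshold, 1 with all libraries, was 0 with a pseudocount of 1 and 0 with the replicate number as a block (replicate block), and ranged from 0 to 3 when each library was left out. It was 3 without E934 replicate 1 and 0 without E934 replicate 3 or without any single *msnsd* library. Of all genes, 22 of 32931 passed without E934 replicate 1 and 18 of 32968 with a pseudocount of 1. The count over all genes was 0 without E934 replicate 3, without any single *msnsd* library and with the replicate block. Members with an unadjusted p of at most 0.05 numbered 14, and 4 when taken by the GO term for phosphate starvation alone, which leaves 12 tested genes. All 4 were lower in *msnsd* (33.3%, beside 5.09% of all genes). They include 7HG0719630 and 7HG0750980, the pair that led to the group, so this share is a description and no evidence about the group. Leaving out libraries gave 9 (without *msnsd* replicate 3) to 22 (without E934 replicate 1), and the replicate block 15. Of these 9, 22 and 15, 6, 16 and 11 were lower (7.23%, 20% and 13.4% of those tested), beside 3.24%, 7.83% and 5.23% of all genes. The other 3, 6 and 4 were higher, beside 1233 of 33040, 2543 of 32931 and 1802 of 32968 genes. The other pathway genes numbered 9, with 4 (without E934 replicate 3) to 13 (without E934 replicate 1) when libraries were left out and 9 with the replicate block. Of these 4, 13 and 9, 1, 10 and 5 were lower (1.33%, 13.2% and 6.76% of those tested), beside 5.78%, 7.83% and 5.23% of all genes. The other 3, 3 and 4 were higher, beside 1505 of 33087, 2543 of 32931 and 1802 of 32968 genes. The summed SPX-only ratio of 0.553 stayed between 0.484 and 0.603. The causes were not tested.

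Directions turned in genes near 0. The log2 fold change of 2HG0151900 was -0.0018 with a pseudocount of 0.01 and -0.36 to 0.38 over the libraries left out. Over those settings it was -0.09 to 0.07 in 4HG0409450, -0.18 to 0.10 in 5HG0436990, -0.25 to 0.31 in 5HG0523050, -0.19 to 0.58 in 6HG0570550, -0.24 to 0.06 in 6HG0627940 and -0.05 to 0.09 in 7HG0718050.

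Between the E934 and *msnsd* libraries of the same replicate number, deviations from the genotype means correlated at 0.0187, -0.160 and 0.0727 for numbers 1, 2 and 3. The labels do not say whether libraries of the same number shared a plot, day or batch. These correlations cannot settle that. Depth is unknown, and values of short models with low mean normalised counts rest on few reads.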
